A study of Homo sapiens with 2 samples.

Results

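The S6 kinase and 4E-BP arm of mTORC1 signaling was examined at the level of transcript starts in hepatoma cells given Mac-2-binding protein glycan isomer (M2BPGi). The arm was taken as 9 genes chosen by name, RPS6KB1, RPS6KB2, RPS6, EIF4B, EIF4BP7, PDCD4, EEF2K, EIF4EBP1 and EIF4EBP2, out of 16424 genes with deposited values. Each of the 9 had a single entry, matched by its exact symbol. The study used cap analysis of gene expression (CAGE), which sequences a short tag from the 5′ end of each capped RNA. The cells were PLC/PRF/5, an established human hepatoma line. Treated cells received medium with 3 µg/ml M2BPGi for 6 h, and the non-treated condition (0 µg/ml) was kept in medium without it. Both shared the same line, growth protocol, collection and library preparation, and no genetic modification was described for either. The comparison asks which transcripts of the arm differ between cells with and without M2BPGi. Each condition had 1 library, so no difference had a replicate check and no p-value was computed.

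As background, mTORC1 is a kinase complex that senses growth factors, energy and amino acids and drives protein synthesis. It phosphorylates the S6 kinases, which then act on ribosomal protein S6, eIF4B, PDCD4 and eEF2 kinase, and it phosphorylates the 4E-BPs, which otherwise hold back the cap-binding protein eIF4E. Much of this regulation acts on proteins already present, through phosphorylation that CAGE does not measure, and the pathway is often active in hepatocellular carcinoma. The label of the set fits 8 of the 9 genes. The symbol EIF4BP7 resembles those of the 4E-BP genes, but it is a processed pseudogene of EIF4B on chromosome X in GENCODE v29 and encodes no 4E-BP.

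Of the 9 genes, RPS6 was higher in M2BPGi-treated cells by at least 2-fold and EIF4B was lower by at least 2-fold. The other 7 lay inside 2-fold, among them both S6 kinases and both 4E-BPs. Across the 13724 genes with a mean of at least 1 CPM (the tag count of a gene scaled to the library total), 0.240% were at least 2-fold higher and 0.430% were lower by the same margin. These were 33 and 59 genes with 1 CPM added to each value before the ratio, and 53 and 162 with 0.1 CPM added. With 1 gene in each direction, these members are described singly and the arm is not described as shifted in either direction. RPS6 and EIF4B both have processed copies elsewhere in the genome. Summed with its copies, RPS6 was 4.28-fold higher in place of 7.66-fold, both as plain ratios of CPM, and EIF4B was no longer lower, so that 0 members were at least 2-fold lower.

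The start sites of 4 members are shown because CAGE tags are taken from the 5′ ends of transcripts and because RPS6 and EIF4B share a feature at the annotated start. The sequences are from RefSeq on GRCh38.p14, 5′ to 3′ on the strand of the gene. Lower case marks the 40 bases upstream of the annotated start, and capitals mark the 25 bases from the start onwards, which lie in the 5′ part of the transcript. The windows are chr9:19380212-19380276 on the minus strand for RPS6, chr12:53006416-53006480 on the plus strand for EIF4B, chr17:59893081-59893145 on the plus strand for RPS6KB1 and chr10:110871888-110871952 on the plus strand for PDCD4.
RPS6: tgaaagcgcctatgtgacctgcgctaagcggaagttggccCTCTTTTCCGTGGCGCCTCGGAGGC
EIF4B: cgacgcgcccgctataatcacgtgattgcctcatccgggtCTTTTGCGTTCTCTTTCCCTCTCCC
RPS6KB1: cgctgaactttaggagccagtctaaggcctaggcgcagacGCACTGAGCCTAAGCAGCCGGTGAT
PDCD4: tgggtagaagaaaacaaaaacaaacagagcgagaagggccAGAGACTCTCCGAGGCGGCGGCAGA

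The RPS6 transcript opens with C and a run of 9 pyrimidines in all, and the EIF4B transcript opens with C and a run of 5. A start of this kind, C followed by at least 4 pyrimidines (C or T), is the form of the terminal oligopyrimidine tract, through which mTORC1 is known to control the translation of ribosomal protein mRNAs. The motif was read on the strand of the gene at the first base only. Of 9 members, 7 had a sequence in the RefSeq table, leaving aside EIF4EBP1 and EIF4BP7. The motif was present in 2 of these 7, and the starts of RPS6KB1, RPS6KB2, EIF4EBP2, PDCD4 and EEF2K open with G or A. Of 35116 RefSeq starts, 4.07% had the motif. A match is a description of the annotated start and not of the position at which tags were found, since the deposited values are per gene.

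Each library total was read back from the step size of its CPM values. The non-treated library had 24040209 tags and the M2BPGi-treated library 24862941, so that 1 tag was worth 0.0416 and 0.0402 CPM. At this depth a count of 0 allows up to 0.125 CPM in the non-treated and 0.121 CPM in the M2BPGi-treated library. A capped RNA gives a tag at its 5′ end only, so CPM does not grow with transcript length and was compared between genes without division by length. Values below are followed by exact 95% Poisson intervals, which cover counting error only and not the difference between cultures.

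The S6 kinases are the enzymes of the arm. RPS6KB1 (ENSG00000108443, chromosome 17) encodes p70-S6 kinase. It had 44.5 CPM in non-treated cells (41.8 to 47.2) and 44.4 CPM in M2BPGi-treated cells (41.9 to 47.1). RPS6KB2 (ENSG00000175634, chromosome 11), the gene of the related S6 kinase 2, had 50.7 CPM in non-treated cells (47.9 to 53.6) and 48.5 CPM in M2BPGi-treated cells (45.8 to 51.3). For both kinases the intervals of the libraries overlapped. The log2 ratio between the libraries, M2BPGi-treated over non-treated, computed after adding 1 CPM to each value, was 0.00 for RPS6KB1 and -0.06 for RPS6KB2. Without the added CPM, the 95% Clopper-Pearson intervals of the log2 tag ratio were -0.12 to 0.12 and -0.18 to 0.05. A difference in either kinase was not detectable at this depth. The kinases also stood close to each other in level, and in the non-treated library the interval of RPS6KB2 began just above the upper end of that of RPS6KB1.

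RPS6 (ENSG00000137154, chromosome 9) encodes ribosomal protein S6, the substrate that names the kinases and a part of the small ribosomal subunit. It had 116 CPM in non-treated cells (112 to 121) and 892 CPM in M2BPGi-treated cells (881 to 904). These levels rest on 2799 and 22184 tags, and the intervals were far apart. The log2 ratio was 2.93, a 7.61-fold ratio on the same scale with 1 CPM added, and the interval of the tag ratio was 2.88 to 3.00. Summed with its listed copies, described further on, the log2 ratio was 2.09. RPS6 was in place 7 from the highest of the 13724 genes. The gain of 776 CPM moved RPS6 from a level below EIF4EBP1 to the highest level in the arm. In bulk RNA, more RNA per cell and more cells that hold the RNA cannot be told apart.

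EIF4B (ENSG00000063046, chromosome 12) encodes eIF4B, a cofactor of the helicase eIF4A and a target of S6 kinase. It had 29.3 CPM in non-treated cells (27.2 to 31.6) and 10.9 CPM in M2BPGi-treated cells (9.60 to 12.2). The M2BPGi-treated library was lower and the intervals did not overlap. The log2 ratio was -1.35, with an interval of the tag ratio from -1.64 to -1.23, which placed EIF4B at 21 from the lowest of the 13724 genes. EIF4BP7 (ENSG00000225031, chromosome X), its pseudogene copy, went the other way. It had 92.5 CPM in non-treated cells (88.7 to 96.4) and 124 CPM in M2BPGi-treated cells (119 to 128). The log2 ratio of EIF4BP7 was 0.41, with an interval of 0.34 to 0.50, and it was in place 689 from the highest of all genes. In both libraries the pseudogene was thus assigned more tags than its parent gene.

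PDCD4 and EEF2K are inhibitors of translation that S6 kinase restrains. PDCD4 (ENSG00000150593, chromosome 10) encodes a protein that binds eIF4A and had 24.04 CPM in non-treated cells (22.1 to 26.1) and 21.3 CPM in M2BPGi-treated cells (19.5 to 23.2). EEF2K (ENSG00000103319, chromosome 16) encodes the kinase that inactivates elongation factor 2 and had 6.49 CPM in non-treated cells (5.51 to 7.59) and 5.23 CPM in M2BPGi-treated cells (4.37 to 6.21). Both were slightly lower in the M2BPGi-treated library, with overlapping intervals. The log2 ratios were -0.17 for PDCD4 and -0.27 for EEF2K. The interval of the tag ratio was -0.35 to -0.00 for PDCD4, and that of EEF2K, -0.66 to 0.03, included 0. EEF2K was the member with the lowest level in both libraries and therefore had the widest interval.

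The 4E-BPs are the repressors of eIF4E. EIF4EBP1 (ENSG00000187840) had 173 CPM in non-treated cells (168 to 179) and 249.9 CPM in M2BPGi-treated cells (244 to 256). EIF4EBP2 (ENSG00000148730) had 73.0 CPM in non-treated cells (69.7 to 76.5) and 80.3 CPM in M2BPGi-treated cells (76.8 to 83.9). Both were higher in the M2BPGi-treated library, and the intervals of each gene did not overlap. EIF4EBP1 had a log2 ratio of 0.52, with an interval of 0.47 to 0.58 for the tag ratio, and 97.6% of all genes had a lower log2 ratio. EIF4EBP2 had a log2 ratio of 0.14 (0.04 to 0.23), with 74.5% of all genes lower. Neither reached 2-fold. EIF4EBP3, the gene of the remaining 4E-BP, had no entry of its own.

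**Figure D1:**
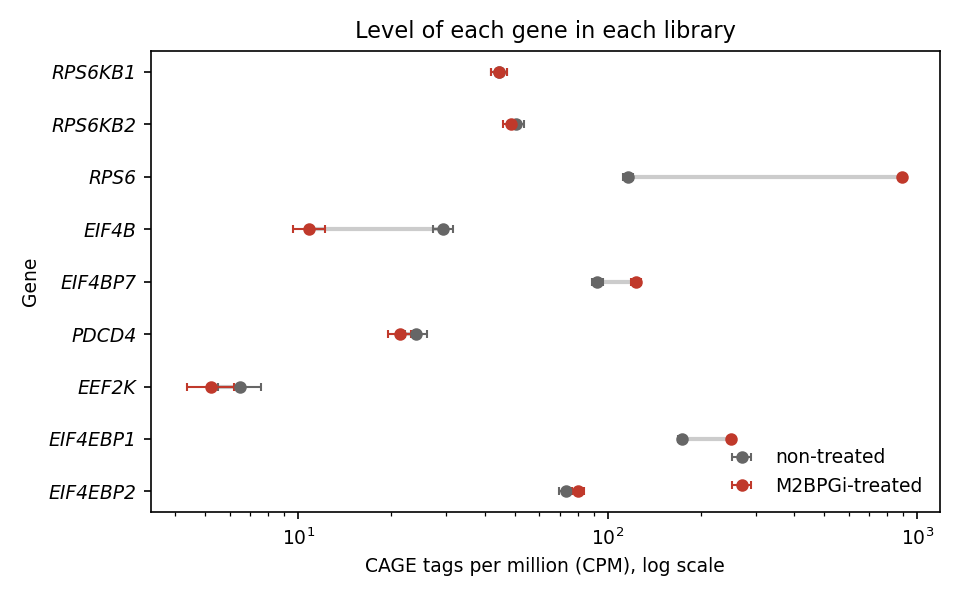
Level of each of the 9 genes in CPM (log axis) in the non-treated library (grey) and the M2BPGi-treated library (red), with exact 95% Poisson intervals as bars. RPS6 goes from 116 to 892 CPM and EIF4B from 29.3 to 10.9 CPM, while the points of RPS6KB1 lie on each other.

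Taking the 9 genes as a list, 9 of 9 passed the minimum mean level of 1 CPM, 4 had a log2 ratio above 0 and 5 below 0, of which RPS6KB1 moved to 0.05 when the libraries were rescaled. Their median was -0.00, beside a median of -0.05 over the 13724 genes, of which 42.9% were above 0 and 57.0% below 0. The interval of the tag ratio lay above 0 for 4 genes, RPS6, EIF4EBP1, EIF4BP7 and EIF4EBP2, and below 0 for EIF4B and PDCD4. It included 0 for RPS6KB1, RPS6KB2 and EEF2K, and for PDCD4 as well after rescaling that set the all-gene median to 0 (-0.30 to 0.05). The share of all genes whose interval lies off 0 is not given here, so these counts are not read as a trait of the arm. The central 95% of all genes ran from -0.67 to 0.52 on the scale with 1 CPM added. RPS6 and EIF4B were clearly outside this range, and EIF4EBP1 was at its upper edge.

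**Figure D2:**
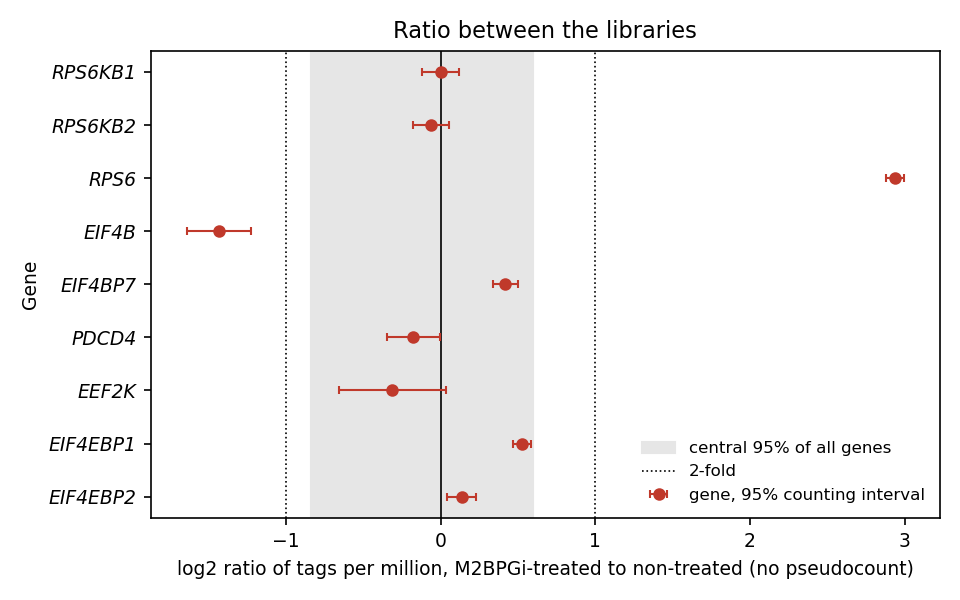
Log2 ratio of scaled tag counts, M2BPGi-treated over non-treated, without a pseudocount, with 95% Clopper-Pearson counting intervals. The grey band holds the central 95% of the 13724 genes on this scale (-0.84 to 0.59), and RPS6 and EIF4B are the 2 members outside it and past the dotted lines at 2-fold.

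RPS6 and EIF4B have processed copies in the genome. How tags with several places were assigned was not given in the sources used here. Copies were sought as pseudogenes in GENCODE v29 that matched the first 500 nt of a member's transcript along 100 nt or more at an identity of at least 90%. EIF4B had 7 such copies, of which EIF4BP7, EIF4BP6 and EIF4BP8 had deposited values. The match of EIF4BP7 was 99.2% identical over 485 nt, that of EIF4BP6 99.2% over 483 nt and that of EIF4BP8 94.2% over 485 nt. EIF4BP6 had 0.08 and 0 CPM in non-treated and M2BPGi-treated cells, and EIF4BP8 had 0 and 0.12 CPM, levels at or under what a count of 0 allows. EIF4BP7 thus held nearly all tags assigned to the copies of EIF4B with deposited values. The other copies had no entry, and their tags, if any, were not analysed here. In transcripts that hold the RefSeq start of EIF4B, the match to EIF4BP7 began 29 bases into the transcript, counting the start as base 1. The bases before it lay outside the match, and whether tags fitted both gene and copy was not tested.

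Summed with its 3 listed copies, EIF4B had 122 CPM in the non-treated and 134.5 CPM in the M2BPGi-treated library, a log2 ratio of 0.14. The direction was therefore the opposite of that of EIF4B alone. EIF4B itself held 24.1% of this sum in non-treated and 8.07% in M2BPGi-treated cells. EIF4B was lower by 18.5 CPM (a difference of -18.5) while EIF4BP7 was higher by 31.1 CPM. A shift of tags between gene and copy and separate differences of each cannot be told apart from values per gene.

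RPS6 had 8 copies by the same search, and 1 of them had deposited values. This copy, RPS6P25, is listed under the older name AD000092.3, and its match was 93.0% identical over 442 nt, beginning at base 42 from the RefSeq start of RPS6. The bases of RPS6 nearest to its start were thus outside the match. It had 129 CPM in the non-treated and 158 CPM in the M2BPGi-treated library, so gene and copy were both higher in the M2BPGi-treated library. RPS6P15, another entry that GENCODE v29 names as a copy, had 0 CPM in both. The sum of RPS6 and these copies was 245 CPM in the non-treated and 1050.4 CPM in the M2BPGi-treated library, a log2 ratio of 2.09. RPS6 held 47.4% of the sum in non-treated and 84.9% in M2BPGi-treated cells. The other 7 copies had no entry, and their tags, if any, were not analysed here.

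**Figure D3:**
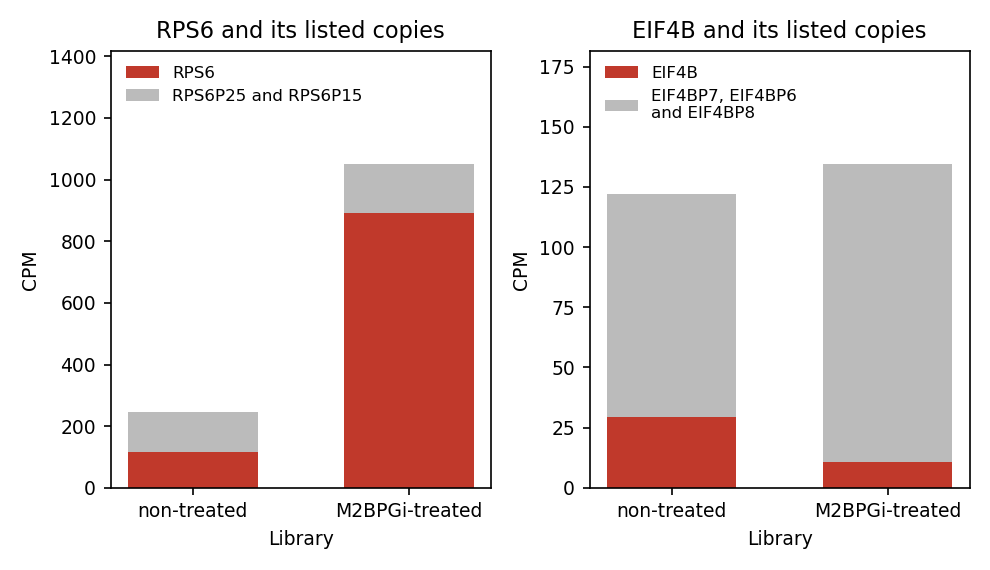
CPM of RPS6 (left) and EIF4B (right) in red with their listed copies stacked in grey, in the non-treated and the M2BPGi-treated library. The RPS6 stack goes from 245 to 1050.4 CPM with most of the gain in RPS6 itself, while the EIF4B stack goes from 122 to 134.5 CPM as the red share goes from 24.1% to 8.07%.

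For the remaining members, copies with deposited values were not found. RPS6KB1 had 5 pseudogene matches and EIF4EBP2 had 1, none of them with an entry, and RPS6KB2, EIF4EBP1, PDCD4 and EEF2K had 0. Overlapping genes were few. An entry named RP5-1073F15.1, overlapping RPS6KB1 on the same strand, had 0.92 CPM in the non-treated and 0.80 CPM in the M2BPGi-treated library, small beside the level of RPS6KB1. RP11-983P16.4, opposite EIF4B, had 13.4 and 13.3 CPM, and BBIP1, opposite PDCD4, had 21.5 and 24.1 CPM. The deposited entries carry a strand, but how it entered the assignment of tags was not given in the sources used here.

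RPS6 was next compared with the other proteins of the small ribosomal subunit, with which S6 is assembled. All 32 other genes had entries (RACK1 under its older name GNB2L1), and 0 of 32 were at least 2-fold higher or lower. Their log2 ratios ran from -0.10 for RPS2 to 0.54 for RPS14, with 31 above 0 and 1 below 0 and a median of 0.33. The lowest pair with a mean of at least 10 CPM was RPS2, with 103 and 96.3 CPM in non-treated and M2BPGi-treated cells, and RPS18, with 131 and 133 CPM. The highest pair was RPS14, with 1261 and 1832 CPM, and RPS15A, with 201 and 289 CPM. The list thus stood above the all-gene median of -0.05 with a narrow range, and the log2 ratio of 2.93 of RPS6 lay above all of it.

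The levels themselves differed widely between these genes. In the non-treated library the 32 others had a median of 633 CPM and reached 6758 CPM for RPS21. In the M2BPGi-treated library the median was 795 CPM and RPS21 had 7827 CPM. RPS6 was in place 5 from the lowest of 33 in non-treated cells, at 0.184 times the median of the others. In M2BPGi-treated cells it was in place 18, at 1.12 times that median. With the listed copies of RPS6 added, and those of the other genes not, it was in place 9 at 0.388 times the median in non-treated cells and in place 21 at 1.32 times in M2BPGi-treated cells, a sum added after the values were seen. The sum of the 32 others was 29591 CPM in the non-treated and 36778 CPM in the M2BPGi-treated library, a ratio of 1.24.

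**Figure D4:**
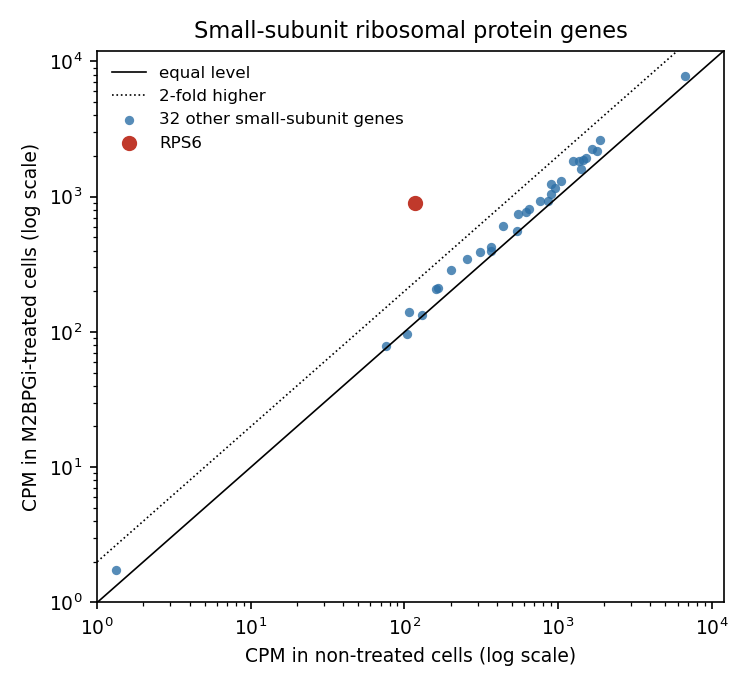
CPM in non-treated (x axis) and M2BPGi-treated cells (y axis), both on log axes, of RPS6 (red) and the 32 other genes of small-subunit proteins (blue). The 32 genes follow the line of equal level, from slightly below it (RPS2) to a log2 ratio of 0.54 (RPS14), and RPS6 lies above the dotted line of 2-fold.

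The activators and brakes upstream of the arm were described in the same way. This list holds the subunits of mTORC1, the GTPase RHEB that switches it on and the TSC complex that switches RHEB off. Of 9 genes, 1 was at least 2-fold higher and 0 were lower by that margin, with a median log2 ratio of 0.06. RHEB had 21.0 CPM in the non-treated and 110.1 CPM in the M2BPGi-treated library, a log2 ratio of 2.34. Copies were sought for members of the arm only, so how the value of RHEB depends on copies was not tested. MLST8, a subunit of the complex, had 82.5 and 111 CPM, and MTOR, its kinase, had 21.2 and 17.9 CPM. TSC2 had 21.5 and 18.7 CPM. Besides RHEB, the genes of this list lay inside 2-fold in both directions.

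The partners on which the 4E-BPs and eIF4B act formed the next list. Of 15 genes of the cap-binding complex eIF4F and of partners of eIF4E, 13 had entries and 0 of these were past 2-fold in either direction, with a median log2 ratio of 0.12. The helicase gene EIF4A1 had 339 CPM in the non-treated and 438 CPM in the M2BPGi-treated library, and PABPC1, the gene of a poly(A)-binding protein, had 126 and 158 CPM. The scaffold genes went both ways, with 254 and 189 CPM for EIF4G1, 53.2 and 40.4 CPM for EIF4G3 and 734 and 853 CPM for EIF4G2. EIF4E itself had 4.37 and 4.30 CPM, close to each other and far below the level of EIF4EBP1.

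Other substrates of S6 kinase gave 13 genes with entries, 0 past 2-fold and a median of -0.06. BAD had 63.6 CPM in the non-treated and 79.5 CPM in the M2BPGi-treated library and EPRS 58.9 and 67.5 CPM, the highest log2 ratios of this list with 0.32 and 0.19. CCT2 had 164 and 146 CPM and CAD, the gene of an enzyme of pyrimidine synthesis, had 46.1 and 38.9 CPM, the lowest with -0.17 and -0.24. The list thus stayed close to the median of all genes. A last list of 30 kinases, phosphatases, ubiquitin ligase parts and targets around the arm had 28 entries, 0 past 2-fold and a median of 0.03. In this list PPP1CC had a log2 ratio of 0.32, and PHLPP2 (-0.36) and RPS6KC1 (-0.27) had the lowest among genes with a mean of at least 10 CPM. EEF2, the target of eEF2 kinase, had 275 CPM in the non-treated and 282 CPM in the M2BPGi-treated library.

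**Figure D5:**
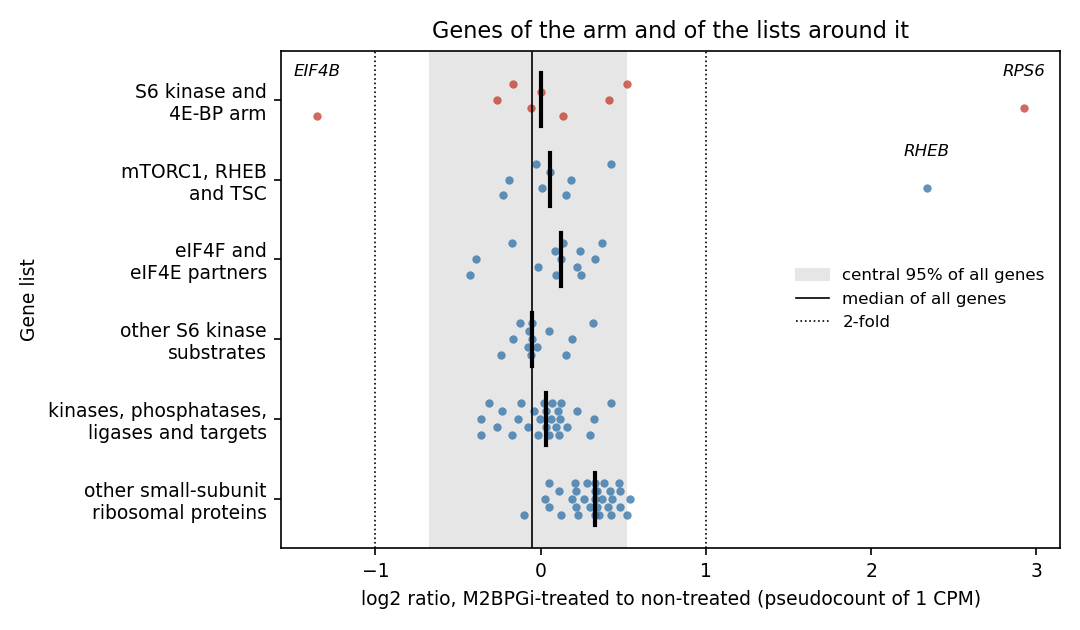
Log2 ratio of the M2BPGi-treated over the non-treated library, with 1 CPM added, for each gene of the arm (red) and of 5 lists around it (blue). Thick bars are list medians, the grey band is the central 95% of the 13724 genes, and RPS6, RHEB and EIF4B are the labelled genes past 2-fold.

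Genes with the most similar ratios were sought among those with a mean of at least 10 CPM, over these 2 libraries alone. Nearest to RPS6 were RHEB, RRN3 and MIR3687. RRN3, the gene of an RNA polymerase I factor, had 2.95 CPM in the non-treated and 17.5 CPM in the M2BPGi-treated library, and the microRNA gene MIR3687 had 118 and 552 CPM. Their log2 ratios of 2.23 and 2.21 were below the 2.93 of RPS6 by 0.70 and 0.72. Nearest to EIF4B were RP11-262H14.3, with 24.5 and 9.69 CPM, MTRNR2L8, with 833 and 353 CPM, and SNORD3C, with 120 and 51.0 CPM. These were within 0.14 of the log2 ratio of EIF4B. Copies of the genes nearest to RPS6 and EIF4B were not sought, so their ratios are as listed.

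The start motif was then set beside the ratios of all genes that could be placed. Of the 13724 genes, 3823 had a single RefSeq start within 20 nt of the start of a coding transcript in GENCODE v29. In 211 of these the start had C and at least 4 pyrimidines, and their median log2 ratio was 0.10, beside -0.05 in the 3612 others. Without genes named RPL or RPS, 176 remained with a median of 0.05. Past 2-fold were 2 higher and 1 lower of the 211, RPS6, ZNF358 and EIF4B, and 1 higher and 3 lower of the 3612. The motif was taken up because RPS6 and EIF4B share it, so nothing is read from finding them among the 211. As listed, the members with the motif went in opposite directions. With copies summed both were above 0, at 2.09 for RPS6 and 0.14 for EIF4B. These sums hold tags of copies whose match begins after the motif, so they give no direction for starts with the motif.

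RPS6 and EIF4B also share a short opening exon, of 47 nt and 41 nt, while it is 196 nt for RPS6KB1, 130 nt for RPS6KB2 and 398 nt for EEF2K. These lengths were looked up after the values were seen. Of the 3823 genes, 298 (7.79%) had an opening exon of at most 50 nt, with a median log2 ratio of 0.01, and of these 1 was higher and 1 lower by at least 2-fold, RPS6 and EIF4B. The limit of 50 nt was set to hold both, so nothing is read from finding them there.

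Markers of the cell type were read in the same libraries. All 8 hepatocyte markers had at least 1 CPM, and their sum was 2355 CPM in the non-treated and 1673 CPM in the M2BPGi-treated library. Nearly all of this sum came from FGB, the most abundant, AFP and SERPINA1. APOA1, with 4.37 and 4.63 CPM, was the only marker of the 8 that was not lower in the M2BPGi-treated library. AFP, typical of hepatoma, had 695 and 566 CPM, and ALB had 8.82 and 7.04 CPM. Of 7 stellate cell or fibroblast markers 2 had entries, with sums of 5.20 and 4.18 CPM, mostly COL3A1. Of 5 macrophage markers CD68 had 21.2 and 20.5 CPM and CSF1R had 0 in both, of 3 leukocyte markers PTPRC was listed with 0 in both, and of 4 endothelial markers 0 had entries. CD68 was thus above ALB, and most other markers of other cell types had no entry or were at 0. The hepatocyte sum was lower in the library in which RPS6 was higher, and its part in the values above was not tested.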

How the data were processed

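CAGE libraries of non-treated and M2BPGi-treated PLC/PRF/5 cells were compared, 1 per condition. The authors removed tags from ribosomal RNA or with undetermined bases, mapped the remainder, clustered 5′ ends using CAGEr, and deposited the result as CPM for each gene with 2 decimals. BWA, HISAT2 and the human build hg19 are named in the submitters' processing notes, whereas the published methods name BWA and a mouse build. The deposited identifiers are of human genes. The rule that assigned tags to genes was not given in the sources used here.

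Columns were assigned by their titles. Library totals were fitted from the CPM steps, under which 100% of values above 0 were whole tags within 0.005 CPM, the rounding. Within a stricter 0.1 of a tag, up to 20 tags, the shares were 87.6% for non-treated and 94.1% for M2BPGi-treated cells. This limit is narrower than the rounding, so these shares cannot decide whether the totals are exact. The tags and intervals are taken as estimates, and no count test was run. Log2 ratios used a pseudocount of 1 CPM, which understates differences of low genes, and genes with a mean of at least 1 CPM. Past the fold means at least 2-fold. Poisson and Clopper-Pearson intervals (95%) address counting error only and take tags as independent. Tags without molecular identifiers are not independent molecules, so the intervals may be too narrow. The floor is 3 counts. No test of conditions was made. Members and lists were chosen with earlier results of these data known.

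Named were every member and its copies, the 2 highest and 2 lowest log2 ratios of each list and the 3 nearest ratios of each member past the fold (mean of at least 10 CPM), and the markers. One gene that this choice selects is left out here. EIF4E, EIF4G2, EEF2, RPS21, ZNF358 and the overlapping genes were named after their values were seen. The named genes are given by the symbols of the deposited table, of which 15781 of 16424 identifiers were in GENCODE v29. Copies were searched with BLAST+ 2.17.0. Alternatives were other pseudocounts, filters, scalings, folds and sums with copies. The fit of the library totals and the calling of genes past the fold were tested on simulated data, and the other steps were not. Python 3.11.15 with numpy 2.4.6, pandas 2.3.3 and scipy 1.17.1 was used.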

Additional observations from a re-analysis of the deposited data

How the results depend on the processing

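No paired analysis was possible because there was a single library of each kind, and for the same reason none could be omitted. Past 2-fold, 1 member was higher and 1 lower with pseudocounts of 0.1 and 5 CPM, without a filter, with a mean of at least 10 CPM, at a fold of 1.5, after rescaling to a median log2 ratio of 0, and with TMM (trimmed mean of M values) factors. When tags were summed with copies named in the deposited table, or with copies named in GENCODE v29 (added after seeing the data), the members at least 2-fold lower were 0. The log2 ratio of EIF4B was then 0.14 under either sum, against -1.35, because the sum holds the tags of EIF4BP7. Leaving out values that an alternative could not move (filters, and sums of members with no copy), 35 of 39 log2 ratios of members moved by less than the counting error. The other 4 were the 2 of EIF4B just given, EIF4B with a pseudocount of 5 CPM (-1.11) and RPS6 summed with the copies of GENCODE v29 (2.09). RPS6KB1 stood at 0.05 after rescaling and with TMM factors, against -0.00, a change of sign within the counting error.

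Over all genes, 33 were at least 2-fold higher and 59 lower. These were 53 and 162 with a pseudocount of 0.1 CPM, 18 and 21 with 5 CPM, and 19 and 28 of the 9464 genes with a mean of at least 10 CPM. Depth limits EEF2K most, while the missing replicates limit each comparison.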
